A study of Mus musculus with 19 samples.

Results

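The comparison concerned small RNA from the hippocampus (right side) of adult C57BL/6 males given an siRNA against GSK3b through the nose, set against mice given vehicle by the same route. Samples were chosen by their titles: 4 siGSK3b arrays and 4 control arrays, 8 of the 19 arrays of the series. Control mice received vehicle, 5 µL in each nostril, on alternate days over 3 days. The siGSK3b mice received 10 µg of siRNA in the same volume on the same schedule, except that the label of replicate 4 gives 11 µg. Tissue was taken 24 h after treatment. The other groups, used below only for reference, were L803mts given intranasally (60 µg, or 61 µg in the label of replicate 4), lithium chow for 4 weeks (0.2% per the labels of the samples, 2% per their protocol text) and ketamine injected into the peritoneum at 10 mg/kg for 24 h. L803mts had 4 arrays, lithium 4 and ketamine 3. No group given a non-targeting siRNA was among the samples analysed here, so the siRNA sequence and the delivery of any siRNA cannot be told apart. The labels do not state that replicates were separate mice, so each p-value covers only the spread among these arrays, which may be technical.

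GSK3b is a serine/threonine kinase that is active in resting cells and is inhibited by phosphorylation of its N-terminus. It phosphorylates beta-catenin, tau and glycogen synthase, and lithium inhibits it. An siRNA is loaded into an Argonaute protein and directs cleavage of the matching mRNA. MicroRNAs act through the same family of proteins, pairing with mRNAs mainly through their seed. The arrays measured small RNA and not Gsk3b mRNA, so the knockdown was not checked by these data. The probe codes are the vendor's, and 0 of them matched a miRNA or gene name in the reference tables. Probes are therefore given by code, and neither a miRNA role nor a cell type could be assigned to any of them.

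All 4 control arrays lay on 1 slide and all 4 siGSK3b arrays on another, so slide and treatment cannot be told apart in any value below. Replicates 1 to 4 were array positions A to D of their slide in both groups. The median spot brightness was 146 to 172 on the control arrays and 151 to 167 on the siGSK3b arrays, against median local backgrounds of 90 to 101 and 90 to 102. Between 3240 and 3389 of the 3432 probes were above background on each of the 8 arrays. The median correlation over probes was 0.9948 within control (6 pairs), 0.9961 within siGSK3b (6 pairs) and 0.9924 between them (16 pairs). Values below are normalized log2 intensities, and a difference is siGSK3b minus control on that scale. The number of arrays limits the precision.

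Few probes changed after the siRNA. Of 3421 probes tested, 4 passed an adjusted p of 0.05 (0.117%) in limma fitted over all 19 arrays, and all 4 rose. No fall passed in this fit (0% of those tested), though 15 (0.438%) and 21 (0.614%) passed in 2 fits with fewer arrays, described below. An unadjusted limma p under 0.05 was found at 393 probes (11.5%), 168 of them higher (4.91%) and 225 lower (6.58%). The differences were small for most probes, with a median of -0.005 and a 5th to 95th percentile range of -0.22 to 0.17. The arrays of the groups did not overlap for 85 probes on the high side (2.48%) and 127 on the low side (3.71%). The count of changed probes ran from 0 to 33 under the alternatives tried, and 33 was reached without control replicate 1. It was 0 without control replicate 2, without control replicate 3, without siGSK3b replicate 3 and without siGSK3b replicate 4. It was 1 without control replicate 4 and 1 without siGSK3b replicate 2.

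Probe ORB_1210051 showed the largest of the 4 rises. It read 13.33, 13.48, 13.55 and 13.90 on the control arrays and 14.56, 15.25, 15.18 and 15.02 on the siGSK3b arrays. Every siGSK3b array was above every control array, and siGSK3b replicate 1 was the lowest of its group. The difference was 1.44 ± 0.26 (SE, n = 4 and 4), or 2.71-fold, with a limma adjusted p of 0.0327. The mean intensity over background was 13400 in control and 32400 in siGSK3b, and the probe was saturated on none of the 8 arrays. Fitted on these 8 arrays alone, which leaves out the saturated arrays of other groups, the limma adjusted p was 0.0148. It was higher on each of its 3 spots, at 34028, 29785 and 33482 in siGSK3b against 13211, 10682 and 16312 in control.

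The other 3 rises were smaller. Probe ORB_0510134 read 10.47, 10.34, 10.52 and 10.39 in control and 10.84, 10.67, 10.80 and 10.91 in siGSK3b. It rose by 0.37 ± 0.06 (SE, n = 4 and 4), or 1.29-fold, with a limma adjusted p of 0.0219. This difference was smaller than the spread between the 3 spots of the probe on an array (SD 0.412). The middle spot was the dimmest on every control and siGSK3b array. With only the first or the last spot the difference was 0.33 and 0.35. Probe ORB_0510307 read 9.04, 8.96, 8.97 and 9.11 in control and 9.38, 9.35, 9.35 and 9.31 in siGSK3b. The SD between arrays was 0.07 in control and 0.03 in siGSK3b, and the groups did not overlap. The rise was 0.33 ± 0.05 (SE), or 1.25-fold, with a limma adjusted p of 0.0219. In control, replicates 1, 3 and 4 of probe ORB_0511082 read 12.06, 11.94 and 12.05, with replicate 2 between them, and the siGSK3b arrays read 12.41, 12.34, 12.26 and 12.41. It rose by 0.34 ± 0.06 (SE), or 1.26-fold, with a limma adjusted p of 0.0219, and its arrays did not overlap. None of the 4 probes is in the table that the authors deposited, and 3 of the 4 lay in print blocks 5 and 6 of the array, where probes wholly above control outnumbered those wholly below it. Over 26 alternative settings, ORB_1210051 passed in 13, ORB_0510134 in 13, ORB_0510307 in 15 and ORB_0511082 in 11, with the same direction in each.

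**Figure D1:**
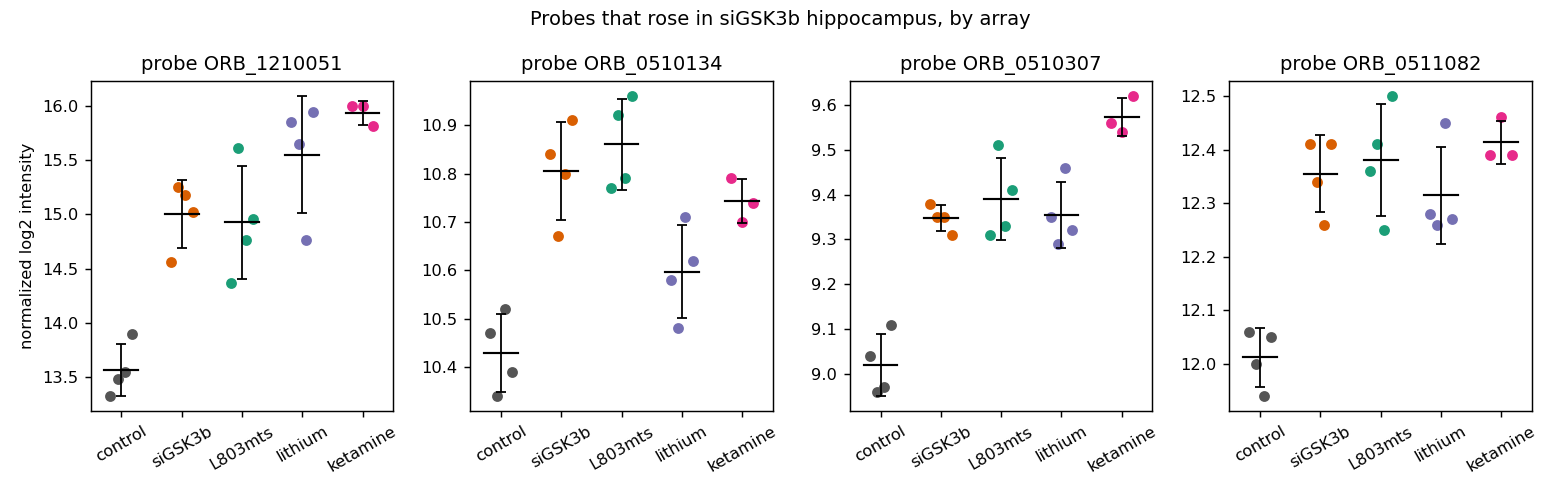
Normalized log2 intensity (vertical axis, a different range in each panel) of the 4 probes that rose after GSK3b siRNA, 1 point per array, in 5 groups; the horizontal line is the group mean and the bar is ± 1 SD. In each panel the siGSK3b points lie above all 4 control points, and in all but the ORB_0510134 panel so do the points of the other treatments; ORB_1210051 is saturated on 1 lithium and 2 ketamine arrays.

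The same 4 probes were then set beside the other treatments, which share the control arrays and are given for description. Against control, ORB_1210051 differed by 1.36 in L803mts, 1.98 in lithium and 2.37 in ketamine. It had saturated spots on lithium replicate 1 and on ketamine replicates 1 and 2, so the lithium and ketamine values are capped. For ORB_0510307 the values were 0.37, 0.34 and 0.56, and for ORB_0511082 they were 0.36, 0.30 and 0.40. ORB_0510134 differed by 0.43 in L803mts (adjusted p = 0.00134), 0.16 in lithium (adjusted p = 0.226) and 0.31 in ketamine (adjusted p = 0.0137). Directly against the other treatments, none of the 4 passed in siGSK3b. Minus L803mts the adjusted p was 0.867 to 0.969, minus lithium it was 0.199 to 0.987, and minus ketamine the lowest among ORB_0510134, ORB_0510307 and ORB_0511082 was 0.0674, for ORB_0510307 (-0.23). For ORB_1210051 the value of -0.93 against ketamine is capped by the saturated arrays, and no p is given. A p above the threshold does not show that the treatments act alike. Over all 3421 probes, siGSK3b differed from L803mts at 0 probes (0%; 297 at an unadjusted limma p under 0.05, 8.68%), from lithium at 2 (0.0585%) and from ketamine at 15 (0.438%).

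**Figure D2:**
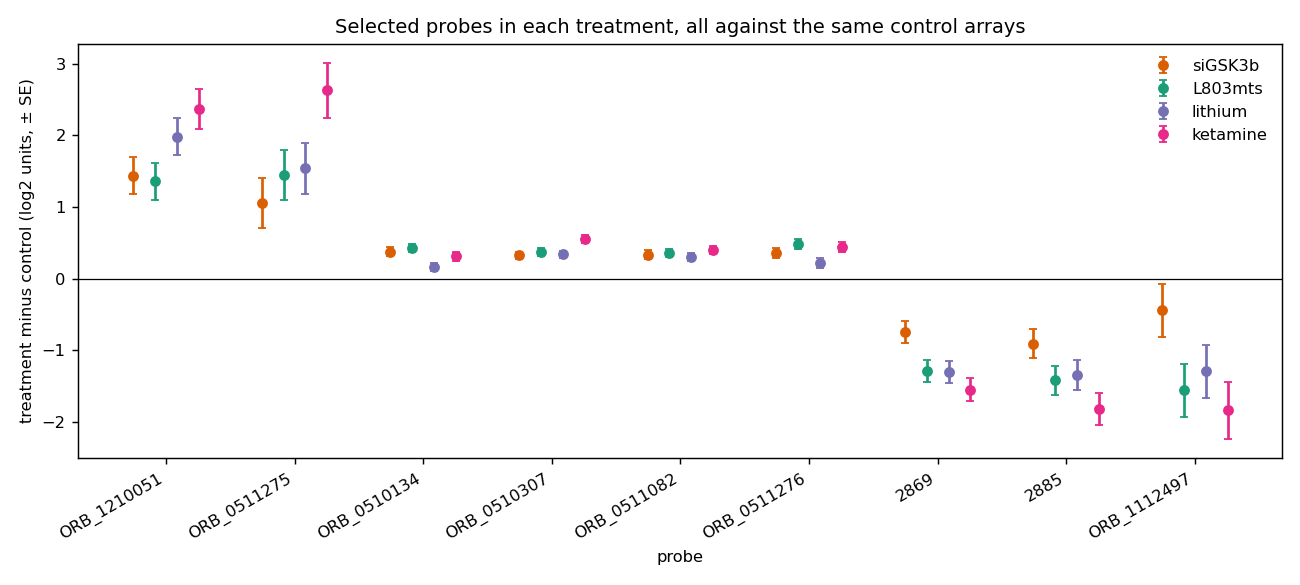
Difference from control (log2 units, vertical axis, ± SE) of 9 probes in each of 4 treatments; the treatments share the same 4 control arrays. ORB_1210051 and ORB_0511275 lie above 0 in each treatment and probes 2869, 2885 and ORB_1112497 below it, with the siGSK3b point nearest to 0 for those 3; the lithium and ketamine points of ORB_1210051 include saturated arrays.

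Among the probes that did not pass, 8 were named on the high side: the largest with an unadjusted limma p under 0.05, no overlap between groups, detection on all 8 arrays and no saturated spot on any of them. Probe ORB_0511275 read 10.48, 10.43, 10.89 and 10.65 in control and 11.49, 11.84, 11.75 and 11.59 in siGSK3b. The arrays did not overlap, and the difference was 1.06 ± 0.35 (SE), with an adjusted p of 0.229 in limma. When only the 8 arrays were fitted it passed with an adjusted p of 0.0129. Probe ORB_0511276 came nearest to the threshold, with 12.37, 12.14, 12.08 and 12.18 in control and 12.56, 12.52, 12.47 and 12.65 in siGSK3b. The siGSK3b arrays were all higher, by 0.36 ± 0.07 (SE, adjusted p = 0.0609 in limma). Probe 2005 was bright, with 15.02, 14.42, 14.42 and 14.70 in control and 15.18, 15.14, 15.05 and 15.14 in siGSK3b. Its difference was 0.49 ± 0.12 (SE, adjusted p = 0.133 in limma), and control replicate 1 lay nearest to the siGSK3b arrays. The other 5, ORB_1210241, ORB_0511210, ORB_1210262, 1477 and ORB_0511524, differed by 0.34 to 0.75, with adjusted p of 0.133 to 0.345.

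In the table that the authors deposited, which holds 747 of the probes, 0 passed (0%) and 111 had an unadjusted limma p under 0.05 (14.9%). Probe ORB_1210241 was dim, with authors' deposited intensities of 111, 44, 68 and 54 in control and 139, 152, 139 and 245 in siGSK3b. All 4 siGSK3b values were above the control values, and replicate 4 was the highest. Probe ORB_1112352 had authors' deposited intensities of 1088, 1024, 572 and 778 in control and 433, 437, 422 and 472 in siGSK3b. Each siGSK3b value was under the lowest control value. The log2 difference from the scanner values was 0.75 for ORB_1210241 (adjusted p = 0.133 in limma) and -0.90 for ORB_1112352 (adjusted p = 0.189 in limma). From the authors' deposited table it was 1.33 and -0.93. The other probes of this table named by the same conditions were 2005, ORB_0511548 and 2340, and the difference of 2340 was -0.54 ± 0.21 (SE, adjusted p = 0.292 in limma).

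By the same conditions on the low side, probe 2885 had the largest difference. It read 9.54, 9.70, 9.68 and 9.67 in control and 8.84, 8.74, 8.71 and 8.67 in siGSK3b. The groups were far apart relative to their spread (SD 0.08 and 0.07), and the difference was -0.91 ± 0.21 (SE, adjusted p = 0.104 in limma). That SE comes from the fit over 5 groups, and the SD was 0.63 in L803mts. Fitted on the 8 arrays alone, 2885 had a limma adjusted p of 0.000491, with SE 0.06. Probe 2869 read 11.08, 11.04, 11.17 and 10.93 in control and 10.46, 10.41, 10.20 and 10.16 in siGSK3b. Its arrays did not overlap either, and the difference was -0.75 ± 0.15 (SE, adjusted p = 0.0753 in limma). With the 8 arrays alone its limma adjusted p was 0.0129. The remaining 6, ORB_1112352, 2906, ORB_1112023, 2877, ORB_0511548 and ORB_0511179, differed by -0.90 to -0.60, with adjusted p of 0.133 to 0.426. Probe 2869 was the only named probe to pass between siGSK3b and another treatment in the fit over 19 arrays, at 0.80 higher than in ketamine (adjusted p = 0.0456 in limma). With median scaling its adjusted p was 0.129, and without the L803mts array on a slide of its own others passed too, among them ORB_0511275 at -1.58 against ketamine (adjusted p = 0.000241 in limma). In all 4 siGSK3b arrays probe 2869 was above the ketamine arrays, whose highest value for this probe was 9.57.

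Lower probes were counted as changed in fits that used fewer arrays. With only the 8 arrays fitted, 20 probes passed (0.585%), 5 higher (0.146%) and 15 lower (0.438%). Without the L803mts array that lies on a slide of its own, 30 passed (0.877%), of which 21 were lower (0.614%), and 8 of the lower ones were shared between these fits. Together 28 probes were lower in either fit, by 0.27 to 0.91, with a median of -0.51. Of all 3421 probes, 127 (3.71%) lay wholly lower in siGSK3b. All 28 were among these, but they were picked by the same differences, so this adds no support. Their median was -0.39, -0.39, -0.60 and -0.57 relative to the control mean on the siGSK3b arrays. The L803mts arrays had -0.54 to -1.24, the lithium arrays -0.58 to -0.67 and the ketamine arrays -0.70 to -0.79. The group means were under control at all 28 probes in L803mts, at 27 in lithium and at 25 in ketamine. All treatments share the control arrays, against which these probes were picked as lower, so neither the medians nor the counts show separate agreement.

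The position of these probes on the array was uneven. Print block 3, which holds 428 tested probes, contained 24 of the 28. In that block 107 probes had an unadjusted limma p under 0.05 (25%), 14 higher and 93 lower. Probe 2869 gave a brightness over background of 4492, 2158 and 1144 on its first, middle and last spot in control, and of 2252, 1203 and 734 in siGSK3b. Signal thus decreased from the first to the last spot in both groups. In control, the first spot exceeded the last by more than 0.5 on the log2 scale at 113 of 3421 probes (3.3%), and at 19 of the 28 (67.9%). Of those 113 probes, 98 were lower in siGSK3b, against 1794 of all 3421. Across the 3421 probes, which are not independent, the correlation of this spot order with the siGSK3b difference was r = -0.15 and rho = -0.03. The part of print position in these differences was not tested.

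**Figure D3:**
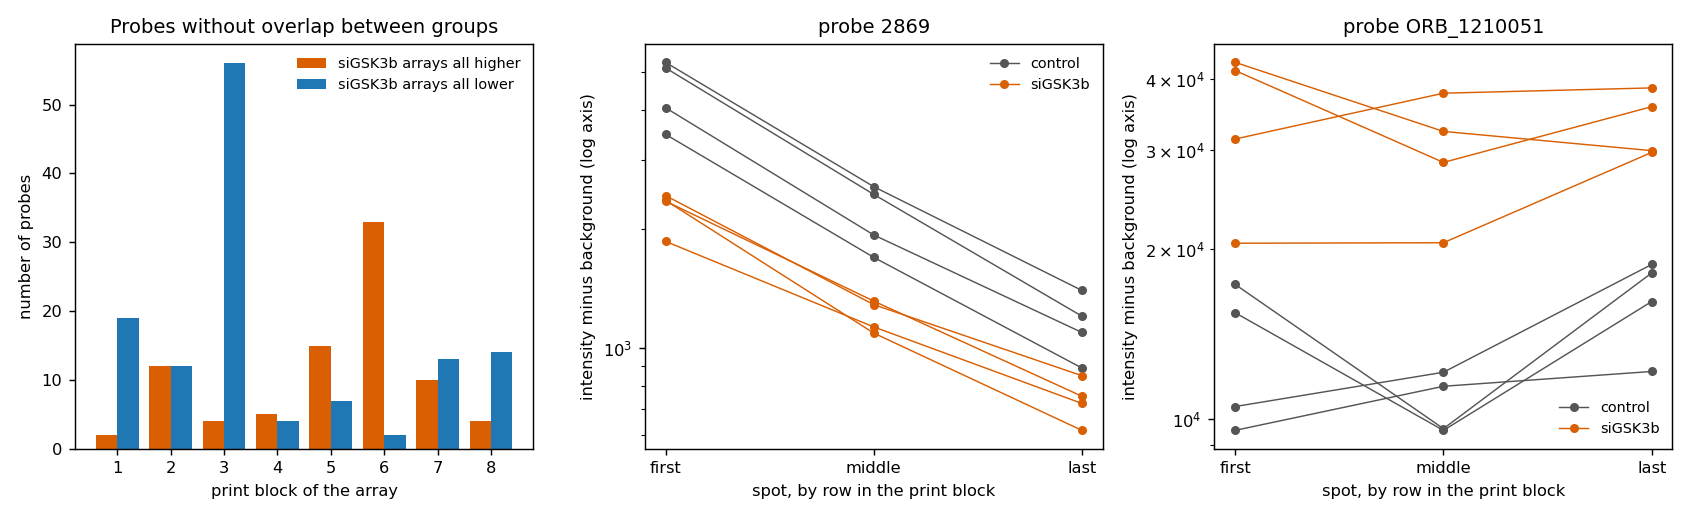
Left, number of probes whose siGSK3b arrays all lie above or all below the control arrays, in each of 8 print blocks; middle and right, intensity over background (log axis) on the 3 spots of probes 2869 and ORB_1210051, 1 line per array. Block 3 holds 56 of the lower probes and block 6 holds 33 of the higher ones. The signal of 2869 decreases from the first to the last spot on every array. For ORB_1210051 the last spot is below the first only on siGSK3b replicates 3 and 4.

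The largest differences came from sets of probes that varied together from array to array, and none of them passed. A difference over 0.9 was found at 35 probes, and 29 of these belonged to 1 of 2 sets. Sets were formed after the values were seen, as probes whose deviations from their group means correlated with a seed probe by over 0.9 across 19 arrays, so no set is tested. An adjusted p given for a single member comes from the fit over all 3421 probes and, as the member was picked by its value, is a description. The 2 sets shared 0 probes. By the same rule, 13 probes were grouped around 2885 (differences -0.91 to 0.00), among them 2877, 2906 and ORB_1112497. These varied together too across the 19 arrays, so they cannot be counted as separate results. One array stood out: the set mean relative to control was -1.98 on L803mts replicate 2, against -0.60 to -0.73 on the other L803mts arrays. Within control, ORB_1112497 was highest on replicate 1, where 2885 was lowest. Of the 13 probes, 2 had saturated spots on the control or siGSK3b arrays. Probes that vary together may share sequence or RNA, and their codes do not say.

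The first set held 15 probes around IGN_orb_0408010, 10 of them in the authors' deposited table, with differences of 0.38 to 3.27 and a median of 1.23. IGN_orb_0408010 read 13.05, 9.67, 8.07 and 8.10 in control and 12.89, 13.33, 12.25 and 13.50 in siGSK3b. Control replicate 1 lay inside the siGSK3b range, and the other control arrays far under it. The difference was 3.27 ± 1.10 (SE, adjusted p = 0.229 in limma), and without control replicate 1 it was 4.38 (adjusted p = 0.0475). Probe 2324 read 10.86, 8.21, 7.72 and 7.75 in control and 10.42, 11.19, 10.48 and 11.81 in siGSK3b. Again only control replicate 1 reached the siGSK3b level. Probe 1489 had saturated spots on all 4 siGSK3b arrays and on control replicate 1, and read 14.67, 14.28 and 14.43 on the other control arrays, so both group means are capped and no fold is given. Of the 15 probes, 0 passed with all arrays, and 11 passed without control replicate 1, a fit in which 33 probes passed (0.965%) and which leaves out the control array that was high in this set.

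The mean of this first set was 11.07, 9.29, 9.04 and 9.10 on the control arrays and 10.75, 11.17, 10.71 and 11.51 on the siGSK3b arrays. It was 10.58, 10.99, 10.93 and 9.06 in L803mts, 9.11, 9.35, 9.25 and 9.12 in lithium, and 10.80, 10.85 and 9.64 in ketamine. Low values near 9 and high values near 11 thus both occurred within control and within L803mts. All 4 siGSK3b arrays were high and all 4 lithium arrays were low. In siGSK3b, IGN_orb_0408010 was higher than in lithium by 4.80 (adjusted p = 0.0925 in limma). Against L803mts the difference was 1.45 (adjusted p = 0.78 in limma), and against ketamine 1.29 (adjusted p = 0.765 in limma). The probe was picked after its siGSK3b values were seen, so these values are descriptions. Control replicate 1 also had the highest median spot brightness (172) and the most saturated spots (188) of the 8 arrays, and the part of this in the result was not tested.

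The second set held 16 probes around ORB_0510314, 3 of them in the authors' deposited table, with differences of 0.97 to 2.04 and a median of 1.62. ORB_0510314 read 9.30, 9.08, 9.86 and 11.65 in control and 11.68, 12.24, 13.26 and 10.86 in siGSK3b. Control replicate 4 lay above siGSK3b replicate 4, so the groups overlapped. The difference was 2.04 ± 0.58 (SE, adjusted p = 0.165 in limma). The set mean was 9.02, 8.94, 9.38 and 10.85 in control and 10.74, 11.33, 12.10 and 10.14 in siGSK3b. The seeds of the sets correlated by -0.26 over the 19 arrays, and the high control array differed between them. None of the 16 probes passed with all arrays (0 of 16) or without control replicate 1 (0 of 16). Replicate 1 was low in this set, and without it the median difference was 1.38. That fit therefore does not address control replicate 4, the high control array here. The seed ORB_0510314 passed in none of the 8 fits that each left out 1 control or siGSK3b array.

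**Figure D4:**
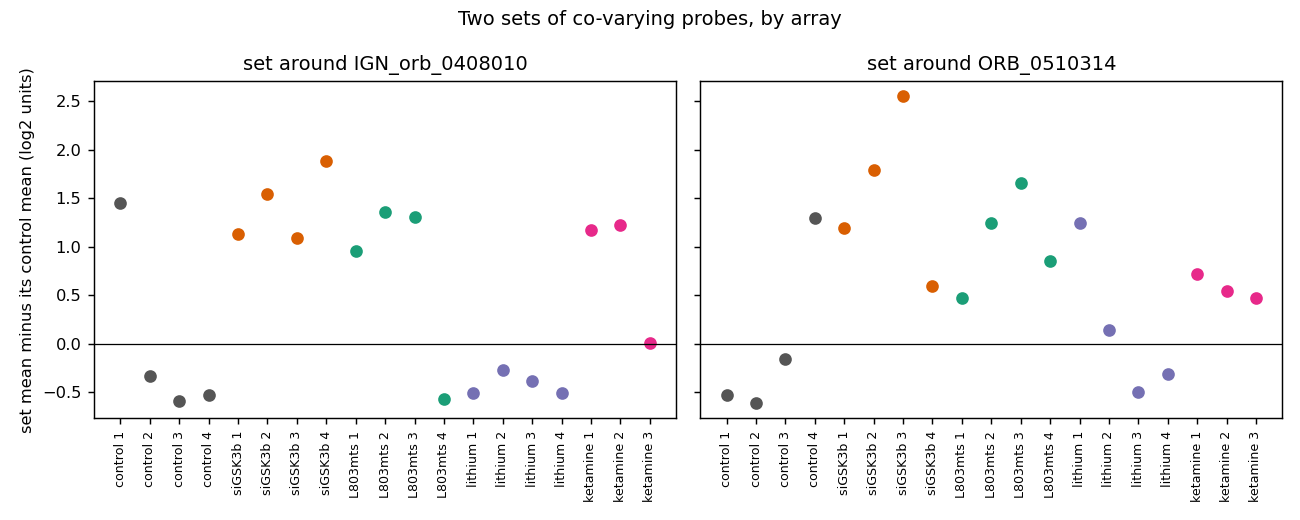
Mean of the 15 probes around IGN_orb_0408010 (left) and of the 16 around ORB_0510314 (right), relative to the mean of the control arrays (log2 units), on each of 19 arrays. On the left, control replicate 1 stands with the siGSK3b arrays; on the right, control replicate 4 does.

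**Figure D5:**
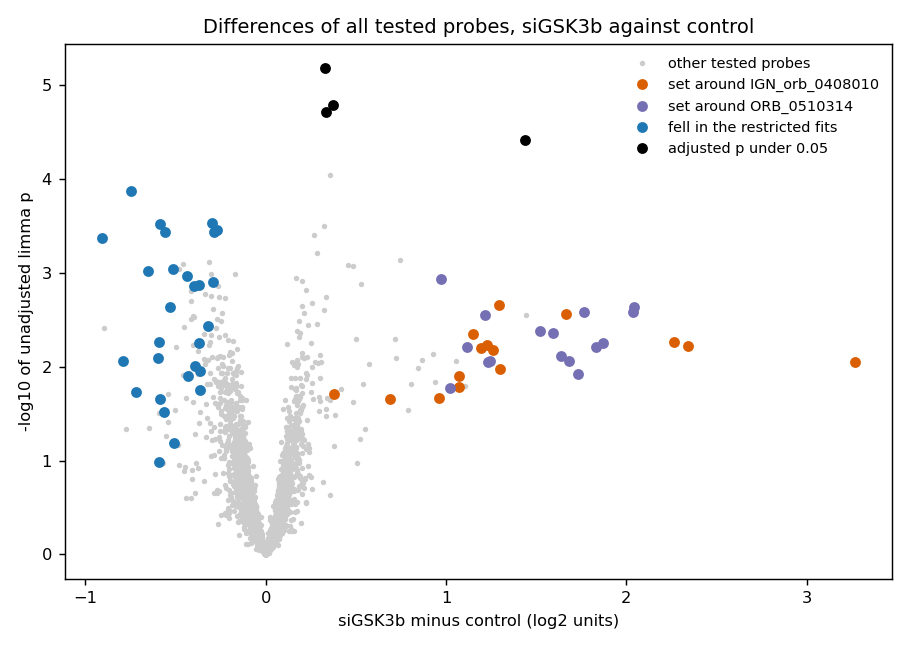
Difference of each of 3421 tested probes (horizontal, log2 units) against the -log10 of its unadjusted limma p (vertical). The largest differences, coloured as the sets around IGN_orb_0408010 and ORB_0510314, lie below the 4 probes that passed (black), and the probes that were lower in the fits with fewer arrays lie on the left.

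Probe ORB_1112497 had been singled out in earlier results of these data. It read 11.82, 11.65, 11.32 and 11.16 in control and 11.19, 11.10, 10.95 and 10.94 in siGSK3b. The groups overlapped, with a difference of -0.44 ± 0.37 (SE, adjusted p = 0.763 in limma). Its signal decreased from 5424 on the first spot to 1568 on the last in control, and from 2960 to 1144 in siGSK3b.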

How the data were processed

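Each array measured small RNA with 1 dye (Oyster-550), per the labels' protocols. The authors deposited scanner files of GenePix Pro 4.1.1.4, per the file headers, with spot intensity and local background, and a table of intensity for 747 probes, whose values with decimals (4778 cells) were multiplied by 1000. Per-column correlation with the scanner intensity minus background was at least 0.99996. Other steps by the authors are not given in the sources used here.

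From the scanner intensities, background was corrected with normexp (offset 50), log2 values of 3 spots per probe were averaged and quantile normalized over 19 arrays, and probes were kept if above background (2 SD) on at least 3 arrays (3421 of 3432). limma 3.58.1 in R 4.3.3 was fitted over 5 groups with Benjamini-Hochberg adjustment at 0.05. The named probes were those with an adjusted p under 0.05, on each side the 8 largest other differences with an unadjusted p under 0.05, no overlap between groups, detection on all 8 arrays and no saturation, the 5 largest in the authors' table by these conditions, and 4 probes from earlier results, 1 of which, with a numeric code, is not reported here; probes of the co-varying sets were chosen after their values were seen. Members and lists were chosen with earlier results of these data known. The miRNA and cell type lists could not be applied, since no code has a name. In simulated data for this comparison (3421 probes, 200 changed), 88.5% of changes of 0.5 and 98.5% of changes of 1 (log2) were recovered, with 12 of 189 and 8 of 205 calls false. The simulated noise was normal and independent between probes, with no slide effect, co-varying sets or outlying array. The real arrays differ in this, so these rates do not carry over to them. Alternatives covered background, scaling, filters, arrays, spots and blocks. Arrays of the same replicate number did not deviate alike from their group means (correlations -0.03, -0.20, 0.00 and -0.33). Replicate number is also array position, and some print blocks differed by position in both groups. The block 4 median was lowest at position A (-0.082 in control, -0.054 in siGSK3b). The block 8 median was highest at position D (0.056 and 0.037), while other blocks did not all share such an order.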

Additional observations from a re-analysis of the deposited data

Results flagged for a closer look

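In a search for single arrays standing apart from the rest of their group, 68 checks found 6, against 3.4 expected, since chance marks about 1 in 20; the probes had been picked by value and share arrays. In control, replicate 1 stood apart at 3 probes: 2324 (10.86, the nearest other array at 8.21), ORB_1210710 (11.22, nearest 8.42) and 2885 (9.54, nearest 9.67). The probes 2324 and ORB_1210710 belong to the set around IGN_orb_0408010. Control replicate 3 stood apart at ORB_1210262 (13.28, nearest 13.07). In siGSK3b, replicate 4 stood apart at ORB_1210241 (8.28, nearest 7.71) and replicate 1 at ORB_0511548 (10.29, nearest 10.49). Probe 2869 was 0.80 higher in siGSK3b than in ketamine (adjusted p = 0.0456, limma), but with median scaling the adjusted p was 0.129, and the siGSK3b and ketamine arrays lie on different slides.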

How the results depend on the processing

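The count of 4 changed probes was 3 without background subtraction, 4 with no filter on dim probes, 4 with probes detected on all 19 arrays, 4 with slide as a random block and 5 after centring print blocks. It was 0 with plain subtraction, 1 with median scaling and 10 with cyclic loess. It was 0 for the authors' probes alone and 0 for the authors' deposited table. It was 1 when spots not found were left out, 1 with trend and robust moderation, 12 with array weights and 2 with the median of the spots. It was 20 with the 8 arrays fitted, 24 with them normalized and fitted, and 30 without the L803mts array on its own slide. With only the first or the last spot, chosen after seeing the data, it was 1 and 1. Leaving out each array in turn gave 0 to 33. With a replicate block, which in these groups is also the array position A to D, it was 0. In that fit the limma adjusted p was 0.0669 to 0.13 for the 4 probes. No siGSK3b difference from control of a named probe changed sign. Against other treatments, 8 differences changed sign. For siGSK3b minus L803mts, ORB_0510134 was 0.01 with median scaling and 0.05 with loess, ORB_0511082 was 0.00 with loess, ORB_1210051 was -0.01 with median scaling and -0.02 with loess, and ORB_0511275, at -0.39 with all arrays, was 0.11 without the L803mts array on its own slide (13.55, against 11.15 to 11.87 on the other 3). For siGSK3b minus lithium, ORB_0510307 was 0.06 with loess. For siGSK3b minus ketamine, ORB_0511082 was 0.04 with median scaling. The cause was not tested. Slide and treatment coincide, and spots near background limit the dimmest probes.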
